A study of Mus musculus with 6 samples.

Results

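The beta crystallins are the lens proteins encoded by Cryba1, Cryba2 and Cryba4, the acidic chains, and by Crybb1, Crybb2 and Crybb3, the basic chains. They were taken by gene symbol, and each of the 6 symbols had 1 row among the 41449 rows of the expression table. All 6 were among the 10149 genes tested, those whose mean reached 1 FPKM. FPKM is the number of sequenced fragments scaled to the length of the transcript and to the size of the library. Levels of genes can be set beside each other within a library, while differences between libraries also depend on how the libraries are put on 1 scale. Total RNA was sequenced from whole lenses of mice aged 2 months, in 3 FNcKO and 3 WT libraries, each made from 2 lenses. FNcKO mice carried a conditional knockout of fibronectin, an extracellular matrix protein that cells bind through integrins, on a strain background given as Mixed (C57BL/6, 129, FVB/N). WT mice were C57BL/6. The driver of the conditional deletion is not given in the sources used here. Genotype and strain background divided the libraries in the same way, so the contributions of the 2 cannot be told apart in any difference below.

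Crystallins are the soluble proteins that fill the fiber cells of the lens and give it its refractive index. Fiber cells degrade their nuclei as they mature, so the crystallins of the lens core are kept for life. Beta crystallins share the beta-gamma fold with the gamma crystallins, but they assemble into dimers and larger oligomers in which acidic and basic chains mix. The acidic chains carry an extension at the start of the chain, and the basic chains carry one at each end. Mutations in several of these genes cause congenital cataract in humans. The data give RNA levels, and protein was not measured.

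In these lenses Crybb1 and Crybb3 were 32.9% and 33.1% higher in FNcKO than in WT, and no FNcKO value overlapped a WT value for either. Cryba1 was 17.2% higher, also without overlap, although quantile normalization turned its direction. Cryba2 and Cryba4 overlapped between the genotypes. Crybb2, the most abundant chain, was 1 of the 2 whose mean was lower in FNcKO as deposited, and its direction turned under 3 of the other scalings. The genotypes thus did not overlap for 4 of the 6, against 25.6% of all genes tested and 6 of the 10 other crystallins. In limma 0 of the 6 passed an adjusted p of 0.05, against 1.89% of all genes tested (unadjusted, 2 were under 0.05, against 18.1%). Ratios between chains within a library did not overlap between the genotypes for 13 of the 15 possible pairs, which reuse the same 6 values per library. Over all pairs of genes tested with a value above 0 in every library the share was 26.1%, and over pairs of the 85 such genes whose mean reached 1000 FPKM it was 51.5%.

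The genes lie at 4 places in the genome (positions as in the deposited table, GRCm38, starts counted from 1). Cryba1 is on chromosome 11 from 77718614 to 77725293, and Cryba2 on chromosome 1 from 74889934 to 74898842. The other 4 are on chromosome 5 in 2 pairs of neighbours. Cryba4 (112246492 to 112263553) and Crybb1 (112254476 to 112269585) are read away from each other, and their principal GENCODE transcripts start 3296 bases apart. Crybb2 (113058258 to 113070117) and Crybb3 (113075839 to 113082233) are read in the same direction and lie 5721 bases apart, 789 kb beyond Crybb1. The tabled intervals of Cryba4 and Crybb1 overlap by 9078 bases, whereas the exons of these GENCODE genes overlap by 0 bases. The principal transcripts have 6 exons in Cryba1, Cryba4, Crybb1 and Crybb3, 5 in Cryba2 and 7 in Crybb2, and are 720 to 906 bases long. Of the stretches of 31 bases in these transcripts, 0 occurred in a transcript of another gene for all 6 members, while 27% to 67.6% did for Cryga to Crygf. Reads of such length can thus be placed in 1 beta crystallin, while those of gamma crystallins can fall in several.

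The 120 bases before the RefSeq start of each gene (GRCm38.p6, on the strand of the gene) are shown because members that share a neighbour or a pattern of levels can be set side by side in them. Capitals mark TATAA on the gene's strand, the sequence of a TATA box; TGCTGA or its reverse complement TCAGCA, a part of the element that large Maf proteins bind; and ACAAAG or its reverse complement CTTTGT, a core that SOX proteins bind. The marked motifs do not overlap each other. The windows are chr11:77725294-77725413 (minus strand) for Cryba1, chr1:74893144-74893263 (minus) for Cryba2, chr5:112252519-112252638 (minus) for Cryba4, chr5:112255700-112255819 (plus) for Crybb1, chr5:113070118-113070237 (minus) for Crybb2 and chr5:113081585-113081704 (minus) for Crybb3.
Cryba1: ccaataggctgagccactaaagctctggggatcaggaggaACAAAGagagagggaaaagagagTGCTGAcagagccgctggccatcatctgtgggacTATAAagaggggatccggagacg
Cryba2: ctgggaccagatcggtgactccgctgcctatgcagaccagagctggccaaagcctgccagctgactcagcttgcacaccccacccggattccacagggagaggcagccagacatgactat
Cryba4: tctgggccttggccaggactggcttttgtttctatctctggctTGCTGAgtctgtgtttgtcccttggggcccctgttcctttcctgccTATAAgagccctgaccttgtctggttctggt
Crybb1: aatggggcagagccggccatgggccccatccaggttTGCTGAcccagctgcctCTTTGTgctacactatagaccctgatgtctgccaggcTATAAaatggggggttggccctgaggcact
Crybb2: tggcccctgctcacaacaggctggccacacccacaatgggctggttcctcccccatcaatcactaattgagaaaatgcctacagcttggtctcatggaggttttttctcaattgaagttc
Crybb3: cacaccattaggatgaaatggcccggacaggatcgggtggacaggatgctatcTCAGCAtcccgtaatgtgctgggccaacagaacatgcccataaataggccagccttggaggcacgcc
Cryba1, Cryba4 and Crybb1 have a TATAA on their own strand beginning 23, 31 and 30 bases before the start. A TATAA on the gene's strand lies within the stretch from 40 to 16 bases before the start in 3.52% of 32851 mouse promoters. TGCTGA, on either strand from 250 bases before to 50 after the start, was found in 5 of the 6 genes and in 19.5% of the promoters. In that wider window ACAAAG was found in Cryba1, Crybb1 and Crybb3, and in 18.7% of all promoters. All 3 motifs lie in the printed stretch of Cryba1 and of Crybb1. Crybb3, whose RNA followed that of Crybb1 most closely, has TCAGCA and no TATAA in its printed stretch. In both Cryba2 and Crybb2 none of the 3 motifs lies wholly within the printed stretch. For Crybb3 the RefSeq start lies 474 bases from that of the principal GENCODE transcript, so its window holds the letters before 1 of several annotated starts, while in the other 5 genes the 2 starts are 0 to 10 bases apart. These are exact matches of letters. Variants that differ by a letter, such as cataa in the printed stretch of Crybb3, were not marked. Which starts are used in the lens was not measured.

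The study's description calls the 3 samples of each genotype biological replicates. The p-values below set differences against the spread between such samples, combined with a spread that limma assigns from genes of like level. Estimated depth was 20100000 to 21700000 fragments in FNcKO and 26500000 to 31900000 in WT. At that depth the members rest on 9.38e+04 fragments (Crybb1, WT replicate 3) to 2.13e+06 fragments (Crybb2, WT replicate 1), and counting alone would give an error of 0.068% to 0.33%. The targeted gene Fn1 stood at 0.128, 0.0482 and 0.0942 FPKM in FNcKO and 0.135, 0.188 and 0.253 FPKM in WT, a mean of 0.09 ± 0.0399 FPKM in FNcKO and 0.192 ± 0.0592 FPKM in WT (SD, n = 3 each). All 11 markers of lens fibers were among the genes tested. In whole lenses fewer cells of a type and less RNA per cell cannot be told apart.

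Crybb1 and Crybb3 showed the largest differences among the 6. Crybb1, a basic chain with long extensions at its ends, stood at 7387, 7089 and 6914 FPKM in FNcKO replicates 1 to 3, against 5140, 5763 and 5190 FPKM in WT replicates 1 to 3. The lowest FNcKO library was above the highest WT library. Its means were 7130 ± 239 FPKM in FNcKO and 5364 ± 346 FPKM in WT (SD, n = 3 each). The log2 change on the log2(FPKM + 1) scale was 0.41 (SE 0.09, 95% interval 0.18 to 0.64), with an unadjusted p of 0.0046 and a p of 0.0999 after Benjamini-Hochberg adjustment over all genes in limma.

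Crybb3, a basic chain of the same cluster on chromosome 5, stood at 18220, 17549 and 17088 FPKM in FNcKO, against 12602, 13744 and 13356 FPKM in WT. Every FNcKO library was again above every WT library. Its means were 17619 ± 569 FPKM in FNcKO and 13234 ± 581 FPKM in WT (SD, n = 3 each), with a log2 change of 0.41 (SE 0.10, 95% interval 0.18 to 0.65, limma unadjusted p = 0.00536, adjusted p = 0.109). Both chains kept this direction under all 15 other settings of the analysis. Some of these (no filter, no trend, a replicate block) cannot alter a member's log2 change.

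Crybb2 gave the highest level of the family in both genotypes and the second highest of all rows in the table. It is the chain known as the principal basic one, and loss of part of it causes cataract in mice. Its level was 94678, 87160 and 88447 FPKM in FNcKO, against 94689, 97499 and 98591 FPKM in WT. FNcKO replicate 1 and WT replicate 1 were nearly equal, and the groups are kept apart by that small gap, which closed with median-ratio scaling and with equal FPKM sums. The means were 90095 ± 4021 FPKM in FNcKO and 96926 ± 2013 FPKM in WT (SD, n = 3 each). The log2 change was -0.11 (SE 0.12, 95% interval -0.40 to 0.19, limma adjusted p = 0.695), and it became positive when every library was given an equal FPKM sum (0.15), an equal sum outside the crystallins (0.32) or an equal distribution by quantile normalization (0.26).

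Among the acidic chains, Cryba1 was the most abundant and the only one without overlap. This gene encodes both the A3 and the A1 polypeptide, which are started from different codons of the same RNA. It stood at 32299, 33171 and 30928 FPKM in FNcKO, against 26919, 28702 and 26605 FPKM in WT. All FNcKO libraries were above all WT libraries. The means were 32133 ± 1131 FPKM in FNcKO and 27409 ± 1131 FPKM in WT (SD, n = 3 each). Its log2 change was 0.23 (SE 0.10, 95% interval -0.03 to 0.49, limma adjusted p = 0.321), whereas quantile normalization gave -0.13.

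Cryba4 is the acidic neighbour of Crybb1, and its levels overlapped between the genotypes as deposited. It stood at 12431, 12035 and 11147 FPKM in FNcKO, against 11137, 12210 and 12100 FPKM in WT, with means of 11871 ± 657 FPKM in FNcKO and 11816 ± 590 FPKM in WT (SD, n = 3 each). The log2 change was 0.01, with a 95% interval of -0.24 to 0.25 (limma adjusted p = 0.98). The highest and the second lowest of the 6 values were both from FNcKO. The log2 change was 0.26 with equal FPKM sums, 0.43 with equal sums outside the crystallins and 0.33 with quantile normalization (limma adjusted p = 0.423, 0.224 and 0.403). With equal FPKM sums the levels no longer overlapped, at 12639, 14860 and 11542 FPKM in FNcKO, against 9972, 11079 and 11456 FPKM in WT.

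Cryba2, an acidic chain whose gene lies 3.24 Mb from Fn1 on chromosome 1, stood at 12117, 10342 and 9897 FPKM in FNcKO, against 11041, 12265 and 12194 FPKM in WT. FNcKO replicate 1 lay within the WT range and the other FNcKO libraries lay below it. The means were 10786 ± 1174 FPKM in FNcKO and 11833 ± 687 FPKM in WT (SD, n = 3 each). The log2 change of -0.14 (SE 0.12, 95% interval -0.43 to 0.16, limma adjusted p = 0.601) turned positive with equal FPKM sums (0.11), with equal sums outside the crystallins (0.29) and with quantile normalization (0.18).

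**Figure D1:**
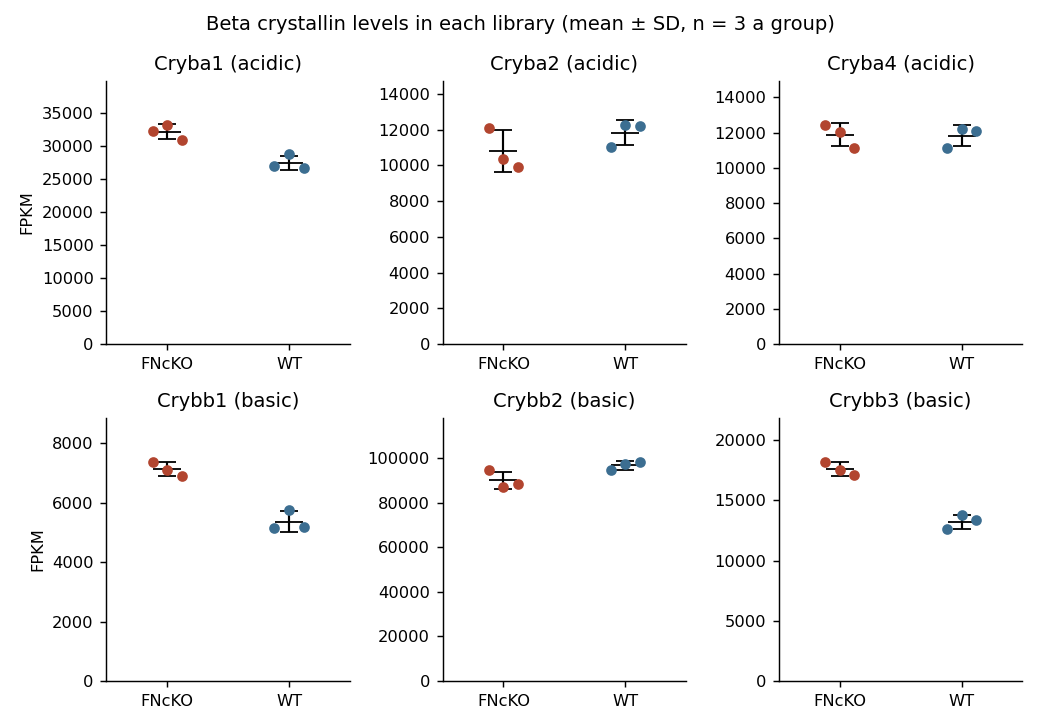
FPKM (each axis from 0) of the 6 beta crystallins in the 3 FNcKO libraries (left) and the 3 WT libraries (right); points are libraries in replicate order, and bars give the mean ± SD (n = 3). Crybb1 and Crybb3 have no overlap between genotypes, with means of 7130 FPKM in FNcKO against 5364 FPKM in WT and of 17619 FPKM in FNcKO against 13234 FPKM in WT, while Cryba4 averages 11871 FPKM in FNcKO and 11816 FPKM in WT.

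The 2 members with an unadjusted p under 0.05 were Crybb1 and Crybb3, and a fit without the mean-variance trend also called 0 of 6 after adjustment. Of the 4 without overlap, 3 were higher in FNcKO as deposited and Crybb2 was lower. The median log2 change was 0.12 over the members and -0.04 over all genes tested. The members varied little between replicates: the residual SD of their log2 values was 0.0498 to 0.124, with a median of 0.0645, where all genes tested had a median of 0.13. The SD that limma assigned to genes of their level in advance was 0.17 to 0.246, above each member's own, and it enters their p-values.

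Replicates of a genotype differed in a way that the chains shared. FNcKO replicate 1 was above and FNcKO replicate 3 below the FNcKO mean for all 6 chains, by 0.517% (Cryba1) to 12.3% (Cryba2) in replicate 1. WT replicate 1 was below and WT replicate 2 above the WT mean for all 6. Differences that all chains of a library share drop out of ratios taken within that library. A factor applied to a whole library leaves these ratios as they are, whereas quantile normalization, which treats genes of different level differently, changes them. For these ratios and for sums over chains, values and overlap are given without a p, since the chains were chosen.

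The ratio whose means lay closest between the genotypes was that of Crybb1 to Crybb3. It was 0.405, 0.404 and 0.405 in FNcKO and 0.408, 0.419 and 0.389 in WT, a mean of 0.405 ± 0.000746 in FNcKO and 0.405 ± 0.0155 in WT (SD, n = 3 each). The levels of the chains differed between genotypes by about as much as each other, so their ratio did not separate the genotypes. Of the 15 other crystallins, Crybb3 was also the one closest in pattern to Crybb1 over the 6 libraries, with a root mean square difference of 0.0322 between their centred log2 levels.

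Against Crybb2 the same chains stood apart. The ratio of Crybb1 to Crybb2 was 0.078, 0.0813 and 0.0782 in FNcKO, against 0.0543, 0.0591 and 0.0526 in WT, and its mean was 1.43 times as high in FNcKO. The ratio of Crybb2 to its gene neighbour Crybb3 was 5.2, 4.97 and 5.18 in FNcKO, against 7.51, 7.09 and 7.38 in WT. Every FNcKO library thus had less Crybb2 RNA for each unit of Crybb3 RNA than any WT library, with means of 5.11 ± 0.127 in FNcKO and 7.33 ± 0.215 in WT (SD, n = 3 each). The ratio of Cryba1 to Crybb2 was 0.357 ± 0.0207 in FNcKO and 0.283 ± 0.0123 in WT, and that of Cryba4 to Crybb2 was 0.132 ± 0.00604 in FNcKO and 0.122 ± 0.00388 in WT, both without overlap. For Cryba4 to Crybb2 the gap was only 0.000792, below either SD, between 0.126 in FNcKO replicate 3 and 0.125 in WT replicate 2. The ratio of Cryba2 to Crybb2 overlapped, at 0.12 ± 0.00807 in FNcKO and 0.122 ± 0.00482 in WT. So 4 of 5 members had a ratio to Crybb2 that did not overlap, against 23.3% of all other genes tested. Over pairs of genes whose mean reached 1000 FPKM, the share of ratios without overlap was 51.5%. When all genes were expressed relative to Crybb2, a setting chosen after seeing the data, limma called 0 of the 5 and 1.36% of genes. The log2 change was then 0.52 for Crybb1 (limma adjusted p = 0.0531) and 0.52 for Crybb3 (limma adjusted p = 0.0502).

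The neighbouring pair Cryba4 and Crybb1 did not keep a common ratio either. It was 1.68, 1.7 and 1.61 in FNcKO, against 2.17, 2.12 and 2.33 in WT, so Crybb1 was higher relative to Cryba4 in each FNcKO library. Among the acidic chains, the ratio of Cryba1 to Cryba4 was 2.6, 2.76 and 2.77 in FNcKO, against 2.42, 2.35 and 2.2 in WT. The ratio of Cryba2 to Cryba4 was 0.975, 0.859 and 0.888 in FNcKO, against 0.991, 1 and 1.01 in WT. These last groups are separated by a narrow gap, and the 3 ratios within the acidic chains were without overlap.

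Across classes, 8 of the 9 ratios of an acidic to a basic chain did not overlap between genotypes, beside the 51.5% of pairs of abundant genes given above, and the exception was Cryba2 to Crybb2. All 6 ratios with Crybb1 or Crybb3 below the line were lower in FNcKO. Cryba2 to Crybb3, for example, was at 0.611 ± 0.0469 in FNcKO and 0.894 ± 0.0185 in WT (SD, n = 3 each). Cryba1 and Cryba4 over Crybb2 were higher in FNcKO, Cryba4 by the narrow gap given above. The direction of an acidic to basic comparison therefore depended on which basic chain was used.

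The summed acidic over summed basic level shows the same. It was 0.473, 0.497 and 0.462 in FNcKO, against 0.437, 0.454 and 0.435 in WT, a mean of 0.477 ± 0.0178 in FNcKO and 0.442 ± 0.011 in WT (SD, n = 3 each). Without Crybb2 below the line it was 2.22, 2.25 and 2.17 in FNcKO, against 2.77, 2.73 and 2.74 in WT. As a ratio of geometric means, which weights each chain alike, it was 0.713 ± 0.0211 in FNcKO and 0.823 ± 0.00856 in WT. These 3 versions all separated the genotypes, but the first was higher and the other 2 were lower in FNcKO. With FPKM multiplied by transcript length before summing, the ratio was also higher in FNcKO without overlap. It was then 0.409 ± 0.0155 in FNcKO and 0.377 ± 0.00941 in WT.

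**Figure D2:**
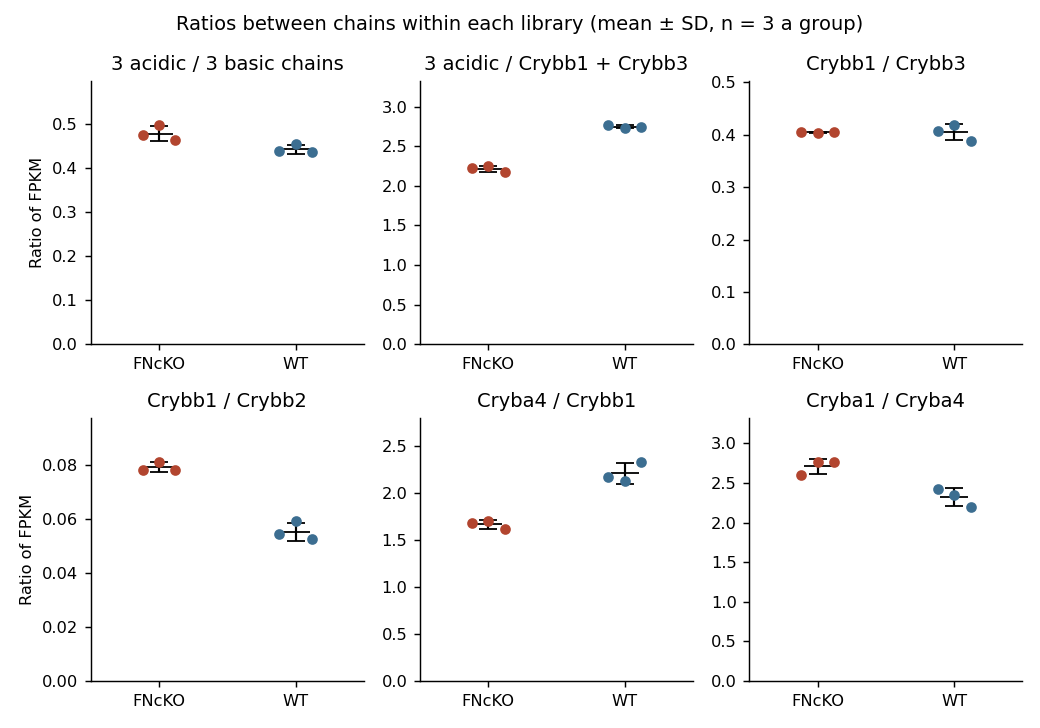
Ratios of FPKM within each library (axes from 0) for FNcKO (left) and WT (right); points are libraries in replicate order, and bars give the mean ± SD (n = 3). The ratio of acidic to basic chains is higher in FNcKO (0.477 against 0.442 in WT) but lower once Crybb2 is left out (2.21 against 2.75 in WT), and Crybb1 over Crybb3 is 0.405 in both genotypes.

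The sum over the 6 chains overlapped between the genotypes as deposited, at 177132, 167346 and 164422 FPKM in FNcKO and 161528, 170183 and 168036 FPKM in WT. Its mean was 169633 ± 6657 FPKM in FNcKO and 166583 ± 4507 FPKM in WT (SD, n = 3 each). With equal FPKM sums it was 180104, 206628 and 170256 FPKM in FNcKO, against 144623, 154419 and 159104 FPKM in WT. So whether the family as a whole separated the genotypes depended on the scale. As a share of the FPKM of all rows with a value in every library, it was 11.7%, 13.4% and 11% in FNcKO, against 9.36%, 9.99% and 10.3% in WT, without overlap. Of that sum, Crybb2 made up 53.5%, 52.1% and 53.8% in FNcKO, against 58.6%, 57.3% and 58.7% in WT. Crybb3 made up 10.4% ± 0.1 in FNcKO and 7.94% ± 0.137 in WT, Crybb1 4.2% ± 0.0328 in FNcKO and 3.22% ± 0.152 in WT, and Cryba1 19% ± 0.804 in FNcKO and 16.5% ± 0.547 in WT, each without overlap. The shares of Cryba2 (6.35% ± 0.435 in FNcKO and 7.1% ± 0.23 in WT) and Cryba4 (7% ± 0.207 in FNcKO and 7.09% ± 0.169 in WT) overlapped. A smaller share of Crybb2 thus stood beside larger shares of Crybb1, Crybb3 and Cryba1 in every FNcKO library.

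**Figure D3:**
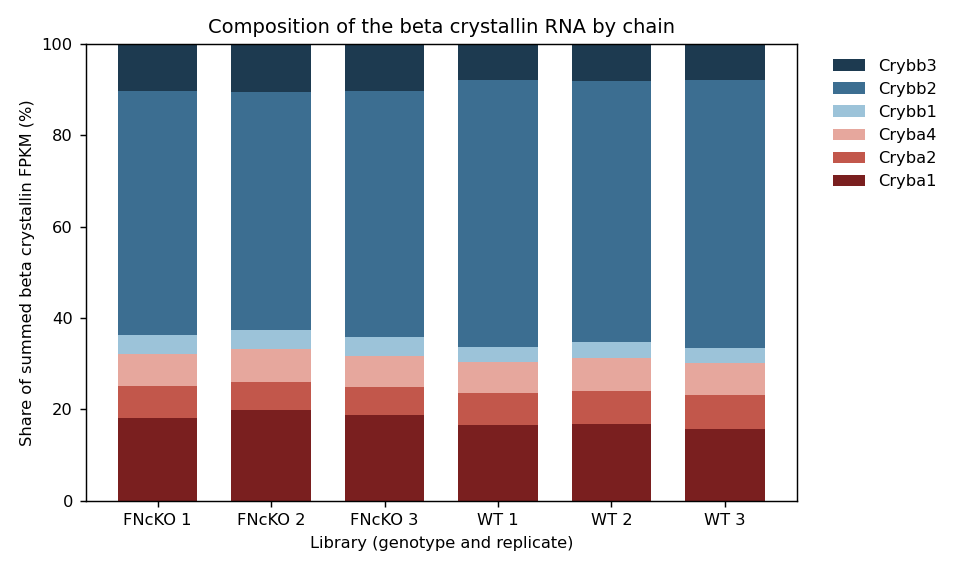
Share of each chain in the summed beta crystallin FPKM (%, stacked bars) in the 3 FNcKO libraries (left) and the 3 WT libraries (right), acidic chains in red and basic chains in blue. Crybb2 fills 53.1% on average in FNcKO and 58.2% in WT, and Crybb3 fills 10.4% in FNcKO and 7.94% in WT.

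The order of the levels in FNcKO was Crybb2, Cryba1, Crybb3, Cryba4, Cryba2 and Crybb1, from highest to lowest. In WT it was Crybb2, Cryba1, Crybb3, Cryba2, Cryba4 and Crybb1. In both genotypes only Cryba2 and Cryba4, neighbours in that order, overlapped. Crybb1 was the lowest of the family at 7130 FPKM in FNcKO and 5364 FPKM in WT, and still ranked 59th of all rows by its mean over the libraries.

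The other crystallins were set beside the family. The 10 alpha and gamma crystallins all had a log2 change above 0 as deposited (6 of 10 with quantile normalization), with a median of 0.28. Of these, 2 passed the test, and 0 did when any single library was left out. Cryge averaged 43151 ± 4667 FPKM in FNcKO and 22494 ± 945 FPKM in WT (limma adjusted p = 0.0331), and Cryga averaged 8020 ± 1266 FPKM in FNcKO and 3590 ± 619 FPKM in WT (limma adjusted p = 0.0422). Both share sequence with other gamma crystallins, so their values are uncertain. The most abundant of the 10 were Crygb, at 48955 ± 2445 FPKM in FNcKO and 37932 ± 1595 FPKM in WT (limma adjusted p = 0.18), and Cryaa, a small heat shock protein, at 45100 ± 1030 FPKM in FNcKO and 39128 ± 1507 FPKM in WT (limma adjusted p = 0.382). Beta crystallins made up 36.8%, 36.1% and 38.2% of the FPKM of all 16 crystallins in FNcKO, against 41.5%, 40.8% and 42% in WT. Every FNcKO library was below every WT library in that share. The total behind it includes Cryge and Cryga, so the uncertainty of their values extends to the share.

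**Figure D4:**
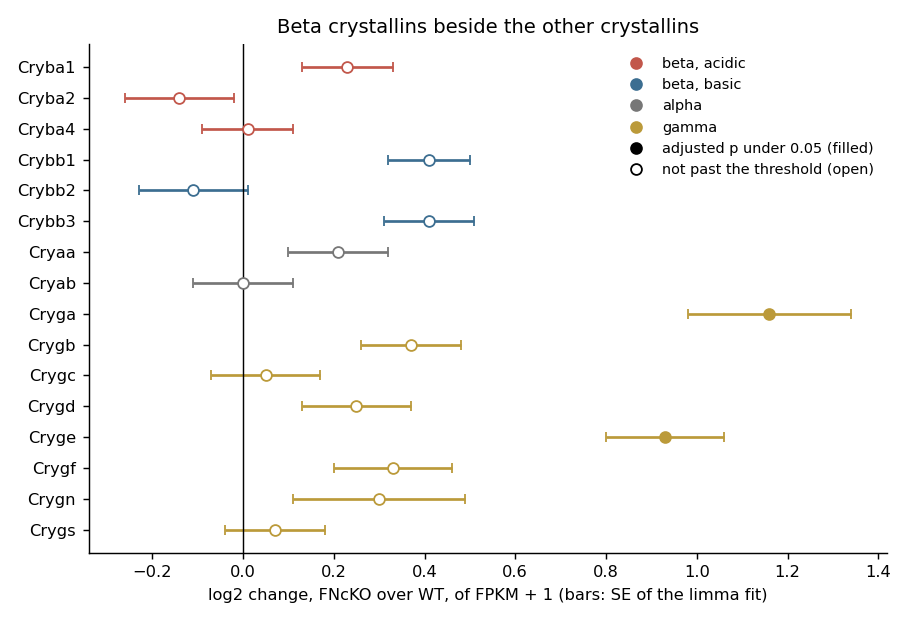
Log2 change (FNcKO over WT, log2(FPKM + 1) scale, bars give the SE of the limma fit) of the 6 beta and 10 other crystallins as deposited; filled points passed an adjusted p of 0.05. Among the beta crystallins Crybb1 and Crybb3 lie highest at 0.41 and Cryba2 lowest at -0.14 (positive with equal FPKM sums, with equal sums outside the crystallins and with quantile normalization), and only Cryga and Cryge, both gamma crystallins, are filled.

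Closest in pattern among crystallins to Cryba1 was Cryaa, with a root mean square difference of 0.0263, and to Cryba4 it was Cryab, with 0.0218. For Cryba2 it was Crybb2, at 0.067. Of the 1596 genes compared with the summed beta crystallin level, whose means reached 10 FPKM, the nearest was Bfsp1, a beaded filament protein of fiber cells, with a difference of 0.0102. Bfsp1 stood at 4225, 4005 and 3865 FPKM in FNcKO and 3849, 4031 and 4036 FPKM in WT. Kif1b (0.0197), Actr3 (0.0234), Serbp1 (0.033) and Slc38a2 (0.0353) came next. These are descriptions over 6 libraries that share their depth and scaling.

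Genes that act on crystallin genes or proteins were listed as well. Of 19 transcription factors and co-regulators, 18 were tested and 0 passed, and their median log2 change was -0.03. At an unadjusted p under 0.05 there were 5 of the 18, against 18.1% of all genes tested. Maf, which activates crystallin promoters in fiber cells, averaged 78.8 ± 8.66 FPKM in FNcKO and 64.2 ± 2.63 FPKM in WT (limma adjusted p = 0.21). Prox1, a homeobox factor of fiber cells, averaged 59.5 ± 4.84 FPKM in FNcKO and 59.1 ± 1.38 FPKM in WT (limma adjusted p = 0.975). Neither factor differed past the threshold. Of 8 genes for enzymes that cut, repair or cross-link beta crystallins, or for the calpain inhibitor, 5 were tested and 0 passed. Of these 5, 2 had an unadjusted p under 0.05, beside the same 18.1% of all genes tested. Capns1, the small calpain subunit, averaged 31.9 ± 2.21 FPKM in FNcKO and 33.2 ± 0.208 FPKM in WT, and Capn2, a calpain, 17.9 ± 1.16 FPKM in FNcKO and 18.9 ± 1.34 FPKM in WT (limma adjusted p = 0.69 and 0.666). The 2 with the smallest p, named after their values were seen, were Capn3, whose lens form cuts crystallins in rodents, at 3.17 ± 0.987 FPKM in FNcKO and 1.29 ± 0.0636 FPKM in WT (limma adjusted p = 0.0772), and the calpain inhibitor Cast, at 3.71 ± 0.204 FPKM in FNcKO and 5 ± 0.535 FPKM in WT (limma adjusted p = 0.117). Of the 3 other genes with beta-gamma crystallin domains, only Crybg3 was tested, at 3.86 ± 0.249 FPKM in FNcKO and 4.48 ± 0.115 FPKM in WT (limma adjusted p = 0.238).

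Of the 14 genes tested within 250 kb of a member, 0 passed the test, 5 had a log2 change above 0, and the median was -0.05. Next to Cryba1, Nufip2 had a log2 change of -0.09 and Myo18a of 0.03. Next to Cryba2, n-TGgcc3 and Cnppd1 had log2 changes of -0.52 and 0.17, and beside the chromosome 5 pairs Tpst2, Myo18b and 2900026A02Rik had 0.08, -0.08 and -0.01. Pitpnb, the next tested gene below Cryba4, had -0.25 (limma adjusted p = 0.146). It ends at position 111388361 of chromosome 5, farther than 250 kb from Cryba4, and is not among the 14. LOC108169063, which lies inside the interval of Crybb2, had -0.23, and since the use of strand in counting is not given in the sources used here, reads of the 2 may be mixed. None of these neighbours was near the levels of the family, the highest being n-TGgcc3 at 59.1 ± 26 FPKM in FNcKO and 81.5 ± 30 FPKM in WT.

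Markers of the cell types were summed to set beside these levels, leaving out markers with no value in WT replicate 2. Fiber markers summed to between 14112 and 15043 FPKM in FNcKO and between 13779 and 14610 FPKM in WT, with 0 of 11 called. Epithelial markers summed to between 1429 and 1643 FPKM in FNcKO and between 1345 and 1398 FPKM in WT, with 0 of 8 called. The fiber sums overlapped between the genotypes, although 6 of the 11 fiber markers did not, against 25.6% of all genes tested. The epithelial sums did not overlap, but 1 of the 8 markers was without overlap: Cd24a, at 952 to 1066 FPKM in FNcKO and 828 to 848 FPKM in WT. The other epithelial markers summed to between 477 and 577 FPKM in FNcKO and between 516 and 561 FPKM in WT, a split made after these values were seen. Markers of the ciliary body and iris summed to between 54.5 and 72.3 FPKM in FNcKO, against 23.8 to 33.8 FPKM in WT, with 1 of 5 tested called (Aqp1, higher in FNcKO). Pigment cell markers summed to between 6.67 and 8.46 FPKM in FNcKO and between 11.6 and 19 FPKM in WT, with 0 of 2 tested called, and photoreceptor markers to between 43.8 and 44 FPKM in FNcKO and between 30.1 and 84.6 FPKM in WT, with 1 of 13 called (Gnat1, lower in FNcKO, tested without WT replicate 2). The sums of the ciliary and pigment lists did not overlap between genotypes, and those of the photoreceptor list did. Corneal markers summed to between 13.6 and 43.4 FPKM in FNcKO and between 25.7 and 30.7 FPKM in WT. Nearly all of that was Aldh3a1, at 13.6 to 43.3 FPKM in FNcKO and 25.6 to 30.7 FPKM in WT. Red blood cell markers summed to between 8.01 and 9.73 FPKM in FNcKO and between 6.78 and 8.64 FPKM in WT. Most of that was Bpgm, at 6.45 to 8.84 FPKM in FNcKO and 6.78 to 7.67 FPKM in WT. No globin gene reached 1 FPKM in any library. Endothelial and leukocyte markers stayed under 2 FPKM in every library. The corneal marker Krt12 and the endothelial marker Cdh5 were listed at 0. The part of these cells in the differences of the beta crystallins was not tested.

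**Figure D5:**
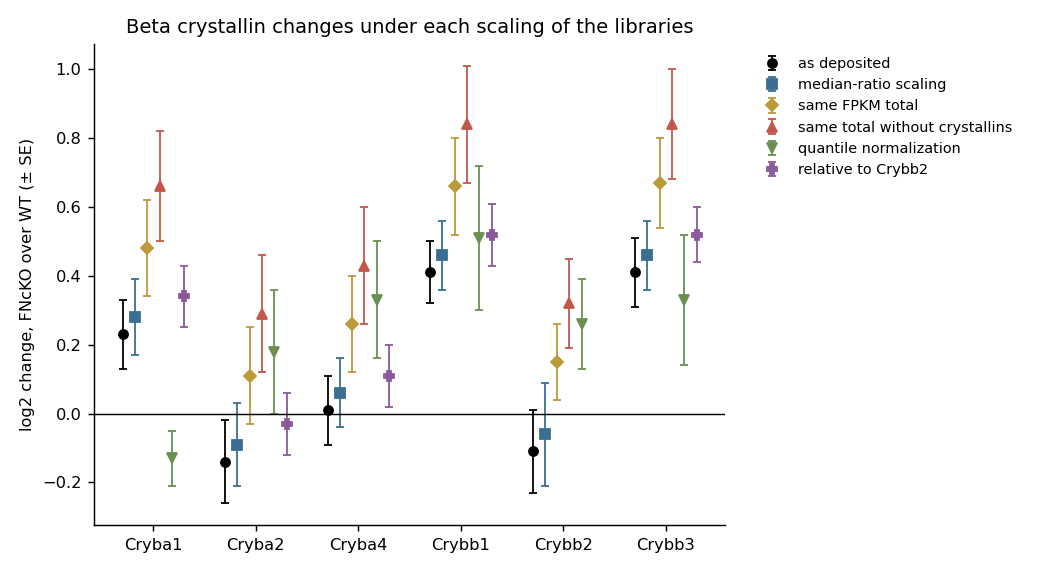
Log2 change (FNcKO over WT, ± SE of the limma fit) of the 6 beta crystallins as deposited and under 5 other scalings of the libraries; Crybb2 has no value relative to itself. Crybb1 and Crybb3 lie above 0 under each scaling, Cryba4 lies between 0.01 and 0.43, Cryba1 lies below 0 (-0.13) with quantile normalization, and Cryba2 and Crybb2 lie below 0 as deposited (-0.14 and -0.11) but above it with equal FPKM sums, with equal sums outside the crystallins and with quantile normalization.

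The size of the changes depended on how libraries were put on 1 scale, as the plot of log2 changes by scaling shows. The median log2 change over all genes was 0.15 with equal FPKM sums and 0.29 with equal sums outside the crystallins, against -0.04 as deposited. Crybb1 then had a log2 change of 0.66 and 0.84, and Crybb3 of 0.67 and 0.84. The ratio of Crybb1 to Crybb2, with a log2 fold of 0.52, is the same under both of these scalings. It is not the same under quantile normalization, where Crybb1 had a log2 change of 0.51 and Crybb2 of 0.26.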

How the data were processed

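RNA of 3 FNcKO and 3 WT lens samples was sequenced. The authors deposited FPKM values as 1 table; the tools named in the submitters' processing notes are Cuffdiff 2.2.1, TopHat2 2.1.0, cutadapt 1.12 and FastQC, with the builds mm10 and GRCm38.p5. Gene annotation, strand use and handling of multiply mapping fragments are not given there. Of 41449 rows, 3578 have no value in WT replicate 2, none of them a member.

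From the deposited FPKM, log2(FPKM + 1) of the 10149 genes whose mean reached 1 FPKM was compared between genotypes with limma 3.58.1 in R 4.3.3 (trended empirical Bayes, two-sided, no covariate), with Benjamini-Hochberg adjustment over all these genes and a threshold of 0.05. The step was tested on simulated data. Folds are ratios of mean FPKM. Sums, shares and ratios of chains were computed within each library. Likeness is the root mean square difference, over the 6 libraries, of log2 levels centred on their mean.

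Depth was estimated from low values of single-exon genes, 62.9% to 67.2% of which lay within 0.15 of a whole number of fragments, and it enters no test. Exons are those of the principal GENCODE transcript. Promoters come from RefSeq, which had an entry for all 6 members.

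Genes outside the family were named by rule: of each list those past the test (at most 4) and the 2 most abundant, the nearest tested neighbour on each side, and the genes closest in pattern. The members and lists were chosen with earlier results of these data known. The alternatives were other scalings of the libraries, another pseudocount, no filter, no trend, a replicate block and leaving out each library.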

Additional observations from a re-analysis of the deposited data

How the results depend on the processing

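Under 15 alternatives for each chain (14 for Crybb2), 79 of 89 log2 changes kept their direction and none passed an adjusted p of 0.05. That tally includes settings that could not turn a direction. Using no filter, no trend or a replicate block leaves the log2 change of a member as it is and alters only its p. Another pseudocount hardly moves it at these levels. Crybb1 ranged from 0.38 to 0.84 (limma adjusted p 0.0531 to 0.32) and Crybb3 from 0.33 to 0.84 (limma adjusted p 0.0502 to 0.474). Quantile normalization turned Cryba1 to -0.13, Cryba2 to 0.18 and Crybb2 to 0.26. Equal FPKM sums turned Cryba2 to 0.11 and Crybb2 to 0.15 and raised the difference of the beta crystallin sum (FNcKO minus WT, 3051 FPKM as deposited) to 32948 FPKM. Equal sums outside the crystallins gave 0.29, 0.32 and 54704 FPKM. The acidic-to-basic difference (0.0353) became -0.11 with geometric means and -0.533 without Crybb2, and was 0.0314 with FPKM multiplied by transcript length. Leaving out 1 library moved Cryba4 between -0.04 and 0.05, its share between -0.192 and 0.0146 percentage points, and the summed difference between -699 FPKM (without FNcKO replicate 1) and 5656 FPKM.

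Over all genes, 192 passed as deposited, 45.3% of them higher in FNcKO. The count was 89 with equal FPKM sums (70.8% higher), 86 with equal sums outside the crystallins (76.7%), 101 with no filter, 242 with median-ratio scaling (57.9%), 199 with quantile normalization (60.8%) and 138 relative to Crybb2 (63.8%). It was 37 to 117 with 1 library left out (37, 48 and 56 without WT replicates 1 to 3, and 117, 75 and 65 without FNcKO replicates 1 to 3). Same-numbered samples did not deviate together (correlations of -0.0271, -0.0545 and -0.0461), and differently numbered ones gave -0.0242 to 0.0696. A pairing by number was thus not seen, but such values cannot exclude it. With the replicate number as a block the count was 14, and 0 members were called. The cause of these shifts was not tested. With 3 libraries a genotype, the 95% interval of Cryba4 held differences of -0.24 to 0.25 on the log2 scale. That interval is not a detection limit, since log2 changes of 0.41 in Crybb1 and Crybb3 did not pass the adjusted threshold.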
